A study of Capra hircus with 198 samples.

Results

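The thyroid of lactating goats was compared with the thyroid of dry goats, in the 6 thyroid libraries of a gene expression atlas that holds 192 libraries of other tissues. The members were found by their titles, which name the thyroid, the physiological state and the goat. The atlas holds total RNA sequencing of 33 tissues from 6 adult female goats of the Murciano-Granadina dairy breed (Capra hircus). Goats 2, 3 and 6 were in lactation and goats 54, 64 and 73 were in the dry period, when no milk is drawn, with 1 thyroid library from each animal. No strain difference, treatment, allele or time point separates the groups in the labels, which also give neither the day of lactation nor the age, pregnancy status or library batch of any goat. State and any other difference between the 2 sets of goats therefore cannot be told apart.

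The thyroid is built of follicles whose epithelial cells secrete thyroglobulin into a central lumen. Iodide enters these cells through the sodium iodide symporter, is oxidised with hydrogen peroxide from the dual oxidases, and is attached to tyrosines of thyroglobulin. Iodinated thyroglobulin is then taken back up and digested in lysosomes, which frees thyroid hormone. Thyrotropin from the anterior pituitary drives the process through its receptor and cAMP, and deiodinases in other organs activate or inactivate the hormone. In dairy ruminants thyroid hormone is known as a regulator of metabolic rate and of the partition of nutrients during lactation.

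The thyroid label was checked first. All 6 libraries resembled the mean thyroid profile of the remaining goats most closely (Spearman rho 0.927 to 0.940 over genes), and the next tissue reached at most 0.871. Of the 18 genes listed for hormone synthesis and follicular identity, 11 had their highest mean of the 33 tissues in the thyroid. Total counts were 3.75 to 4.64 M counts per library, so that 3 counts stood at 0.646 to 0.8 CPM, which limits statements on weakly expressed genes. Annotated lncRNA features took 79.8 to 82.5% of the counts in lactating goats and 84.2 to 86.6% in dry goats, and protein-coding genes took 16.1 to 18.8% and 12.3 to 14.4%, so the groups did not overlap in either share. Levels below are CPM, counts relative to library size, on library sizes scaled by TMM. TMM applies the same factor to all features of a library, so it cannot remove a shift between the lncRNA and coding classes. Such a shift remained in the fitted differences, as the class medians below show. Ranks across tissues, values in the next highest tissue, directions in the other tissues and the comparison with those tissues use plain library totals. Differences are log2 fold changes of lactating over dry, with their standard error (SE). A gene was called when its Benjamini-Hochberg adjusted p in edgeR's quasi-likelihood test was under 0.05.

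Few transcripts passed the test in the thyroid. Of 16728 features tested, 35 were called (0.209%), with 22 higher in lactation (0.132%) and 13 lower (0.0777%). The called features comprised 18 protein-coding genes, 16 annotated lncRNAs and 1 transcribed pseudogene. At an unadjusted p under 0.05 there were 1632 features (9.76%). The 3 lactating libraries all lay above the 3 dry ones for 1376 features (8.23%) and all below for 1241 (7.42%). Among the 8528 protein-coding genes tested these counts were 898 and 396, and among the 7370 annotated lncRNAs tested they were 411 and 794. The median log2 fold change was 0.01 over all features, 0.11 over protein-coding genes and -0.09 over annotated lncRNAs. The number of calls rested on single animals, since it fell to 3 when goat 73 was left out, to 4 for goat 6, to 17 for goat 2 and to 20 for goat 3. It was 54 when goat 54 was left out and 62 for goat 64. With plain library totals the median over all features moved to 0.15 and the calls were 29 higher and 10 lower. The calls were 15 higher and 16 lower when lncRNA features were left out of the fit.

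Thyroglobulin (TG), the protein scaffold of the hormone and the marker of the follicular cell, stood at 19472, 14855 and 17195 CPM in lactating goats 2, 3 and 6. In dry goats 54, 64 and 73 it stood at 7582, 13608 and 11529 CPM. The groups did not overlap, although goat 64 lay nearer to lactating goat 3 than to dry goat 54. The difference was 0.66 (SE 0.20) and did not pass the test (edgeR adjusted p = 0.263). In whole tissue, fewer cells of a type and less RNA per cell cannot be told apart. The difference was 0.45 to 0.84 when single goats were left out, and of the 15 alternatives run it was called in 1, the fit with no filter on low counts. The RefSeq annotation places SLA, a Src-like adaptor gene of lymphoid cells, within the span of TG, and the labels do not say whether strand entered the counting. SLA, singled out after its values were seen, read 8833, 9877 and 10462 CPM in goats 2, 3 and 6 and 3380, 9054 and 4983 CPM in goats 54, 64 and 73. It had its highest mean in the thyroid and its next highest, 40.5 CPM, in the pineal gland, which was also the next tissue for TG at 45.4 CPM. SLA took 30.2 to 40.0% of the summed counts of the pair, so reads from TG and SLA cannot be told apart with certainty. The sum of both was 24732 to 28305 CPM in lactating goats and 10962 to 22662 CPM in dry goats, again without overlap.

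**Figure D1:**
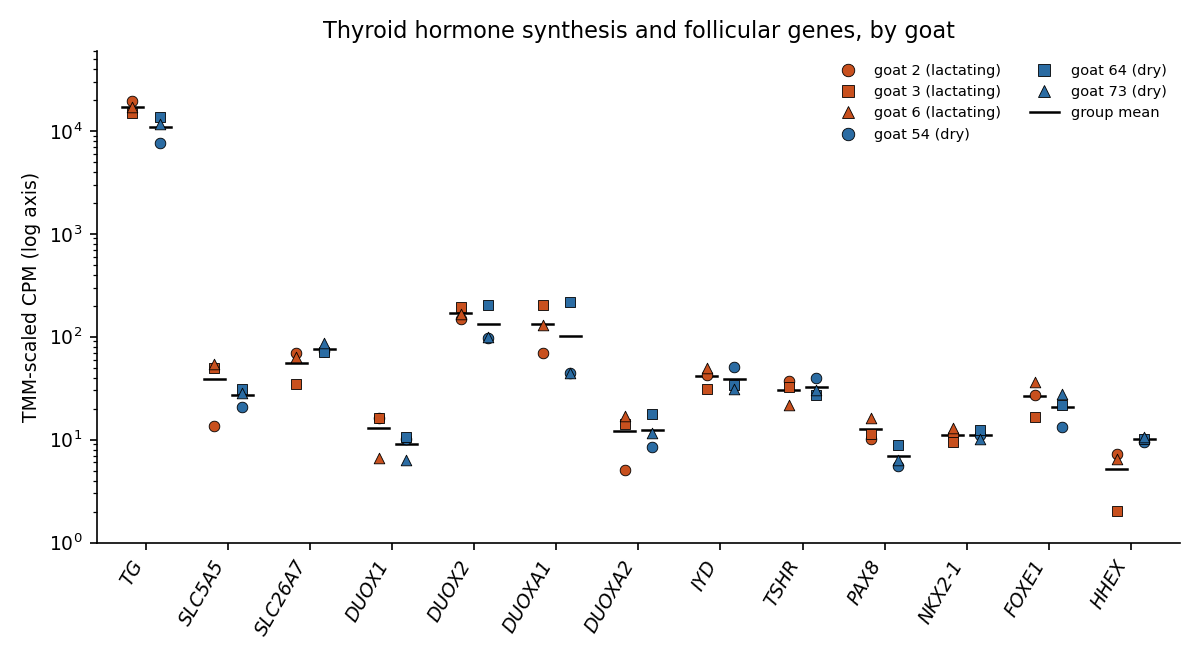
Levels of the thyroid hormone synthesis and follicular genes in the 6 thyroid libraries, in TMM-scaled CPM on a log axis; each symbol is a goat and each bar a group mean. TG and PAX8 lie higher in all 3 lactating goats, SLC26A7 and HHEX lie lower, and the other genes shown overlap.

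The transporters and oxidases of the iodide pathway varied between goats within each state. The sodium iodide symporter SLC5A5 read 13.5, 49.7 and 54.2 CPM in lactating goats 2, 3 and 6, against 20.6, 31.3 and 28.6 CPM in dry goats 54, 64 and 73. Goat 2 was the lowest of all and goats 3 and 6 the highest, so the groups overlapped, and the difference was 0.54 (SE 0.41, edgeR adjusted p = 0.733). The apical anion exchanger SLC26A7 read 68.7, 34.7 and 64.1 CPM in lactation and 71.8, 71.2 and 86.2 CPM in the dry period. All lactating values were lower, with goat 3 well under the rest, at a difference of -0.45 (SE 0.25, edgeR adjusted p = 0.619). SLC26A4, the gene of pendrin, was at 0 CPM in all lactating goats and at most at 1.07 CPM in dry goats, too low to be tested.

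The dual oxidase DUOX2, which makes hydrogen peroxide at the apical membrane, read 148, 193 and 166 CPM in goats 2, 3 and 6 and 96.9, 201 and 99.3 CPM in goats 54, 64 and 73. DUOXA1, a maturation factor of the dual oxidases, read 68.7, 205 and 129 CPM, then 44.5, 215 and 44.3 CPM. Goat 64 was the highest dry animal in both genes by a wide margin, goat 3 the highest lactating one, and both groups overlapped. The fitted differences were 0.35 (SE 0.26) for DUOX2 and 0.41 (SE 0.53) for DUOXA1, neither past the test. The DUOXA1 difference was 1.59 without goat 64 and -0.05 without goat 3, so its size and sign were set by these animals. DUOX1 ran from 6.66 to 16.2 CPM in lactation and from 6.38 to 10.7 CPM in the dry period, and DUOXA2 from 5.12 to 16.8 and from 8.42 to 17.7 CPM. IYD, the deiodinase that recovers iodide from iodotyrosines, overlapped too, at 31.2 to 49.5 CPM against 31 to 51.2 CPM.

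The thyrotropin receptor TSHR read 37.3, 32.2 and 21.5 CPM in goats 2, 3 and 6 and 39.9, 27 and 30.4 CPM in goats 54, 64 and 73. The groups overlapped fully, and the difference was -0.10 (SE 0.27, edgeR adjusted p = 0.95), turning to 0.05 with plain library totals. Of the transcription factors that keep the follicular cell fate, PAX8 was higher in each lactating goat, at 10.2 to 16.3 CPM against 5.54 to 8.83 CPM (difference 0.87, SE 0.39, edgeR adjusted p = 0.495). HHEX was lower in each, at 2.03 to 7.22 CPM against 9.52 to 10.5 CPM (difference -0.94, SE 0.48, edgeR adjusted p = 0.581). NKX2-1 ran from 9.38 to 13.1 CPM in lactation and from 10.2 to 12.3 CPM in the dry period, with a difference of 0.00 (SE 0.34). FOXE1 overlapped at 16.5 to 36 CPM against 13.4 to 27.5 CPM.

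The 18 listed members are accounted for as follows. There were 14 that passed the filter on low counts, of which 10 were fitted higher and 4 lower, with a median of 0.36 against 0.01 over all features and 0.11 over protein-coding genes. Without overlap, 2 were higher (TG and PAX8) and 2 lower (SLC26A7 and HHEX), beside 8.23% and 7.42% of all features. Of the 8528 protein-coding genes tested, 898 were higher and 396 lower without overlap. The chloride channel gene ANO1 was tested and overlapped, at 0.255 to 6.93 CPM against 1.79 to 2.66 CPM. The potassium channel genes KCNE2 and KCNQ1 and the transporter gene SLC26A4 did not pass the filter, and CDH16, a cadherin of follicular cells, was at 0 in all 6 libraries.

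The genes that act around hormone synthesis showed no call. In the list of thyrotropin receptor and cAMP signalling genes, 0 of 9 tested members were called, 7 were fitted higher and the median was 0.25. Its member with the smallest p was the adenylyl cyclase ADCY9, which read 50.8, 40 and 47.8 CPM in lactation and 20.4, 25.2 and 27.4 CPM in the dry period. Those groups did not overlap (difference 0.93, SE 0.24), but the test was not passed (edgeR adjusted p = 0.163). ADCY9 had its highest mean of the 33 tissues in the thyroid. Among genes for thyroglobulin uptake and lysosomal proteolysis, 0 of 13 were called, with a median of 0.30. The protease cathepsin B, CTSB, ran from 81.5 to 92.1 CPM in lactation and from 86.2 to 136 CPM in the dry period. Megalin, LRP2, an endocytic receptor for thyroglobulin, ran from 49.2 to 101 CPM and from 66.3 to 81.3 CPM.

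Genes of hormone export, uptake and deiodination had 0 of 5 tested members called and a median of -0.17. The activating deiodinase DIO2 read 16.9, 33 and 31.7 CPM in goats 2, 3 and 6 and 24.2, 39.7 and 27.9 CPM in goats 54, 64 and 73 (difference -0.17, SE 0.31). DIO1 ran from 4.46 to 10.5 CPM and from 6.42 to 13.1 CPM, and both deiodinases overlapped between states. SLC16A10, an aromatic amino acid and thyroid hormone transporter, read 15.7 to 29.8 CPM in lactation and 28.8 to 53.5 CPM in the dry period (difference -0.76, SE 0.31, edgeR adjusted p = 0.437). Thyroid hormone receptors and response genes had 0 of 8 called, and THRA and THRB were below 7 CPM in every library.

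The endoplasmic reticulum genes that fold secreted proteins, thyroglobulin among them, did not move together. Of 22 tested, 0 were called, 11 were fitted higher and 11 lower, with a median of 0.01. The chaperone HSP90B1 read 73.6, 105 and 129 CPM in lactation and 149, 146 and 147 CPM in the dry period, without overlap (difference -0.52, SE 0.21, edgeR adjusted p = 0.415). The sensor kinase ERN1 lay the other way, at 6.33 to 12.3 CPM against 3.77 to 4.09 CPM (difference 1.09, SE 0.47, edgeR adjusted p = 0.482).

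Of the 3 largest differences in called protein-coding genes with a symbol, 2 were in genes known as targets of the glucocorticoid receptor. ZBTB16, a zinc finger transcription factor, read 21.7, 15.7 and 19.8 CPM in goats 2, 3 and 6 and 2.66, 1.34 and 1.79 CPM in goats 54, 64 and 73. The difference was 3.27 (SE 0.42, edgeR adjusted p = 0.0115). FKBP5, a co-chaperone of the glucocorticoid receptor, read 38.2, 20.3 and 18.3 CPM in lactation and 5.32, 1.34 and 3.33 CPM in the dry period. Its difference was 2.91 (SE 0.48, edgeR adjusted p = 0.0339). Both genes were lower by a wide gap in every dry goat. ZBTB16-IT2, an intronic lncRNA feature of ZBTB16, read 199, 308 and 233 CPM in lactation and 88.2, 256 and 177 CPM in the dry period. Its groups overlapped (difference 0.51, edgeR adjusted p = 0.653), and how reads were split between it and ZBTB16 was not tested. ZBTB16 lost its call without goat 6 or goat 73, with edgeR adjusted p up to 0.0956, and FKBP5 lost its call without goat 2, 3, 6 or 73, with edgeR adjusted p up to 0.206. Both were also higher in the lactating goats in each of the other 32 tissues, and the thyroid difference was not shown to differ from theirs, as given below.

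No other member of the glucocorticoid list was called. Of 16 genes of this list in the table, 11 were tested, 2 were called (beside 0.209% of all features) and 7 were fitted higher, with a median of 0.31. The list was chosen with earlier results of these data known, so these shares are a description and carry no test. Of the tested members, 3 were higher without overlap, namely ZBTB16, FKBP5 and CEBPD, and SESN1 alone was lower. Beside them stood 8.23% of all features and 898 of 8528 protein-coding genes higher without overlap. TSC22D3, a leucine zipper protein that glucocorticoids induce, had its highest mean of the 33 tissues in the thyroid, and overlapped between states at 16 to 21.9 CPM against 16.9 to 18.7 CPM. The stress-inducible gene SESN1 read 20.5 to 24.6 CPM in lactation against 30.1 to 37.9 CPM (difference -0.67, SE 0.24, edgeR adjusted p = 0.365). The glucocorticoid receptor gene NR3C1 overlapped, at 10.4 to 17.6 CPM against 7.22 to 17.7 CPM.

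**Figure D2:**
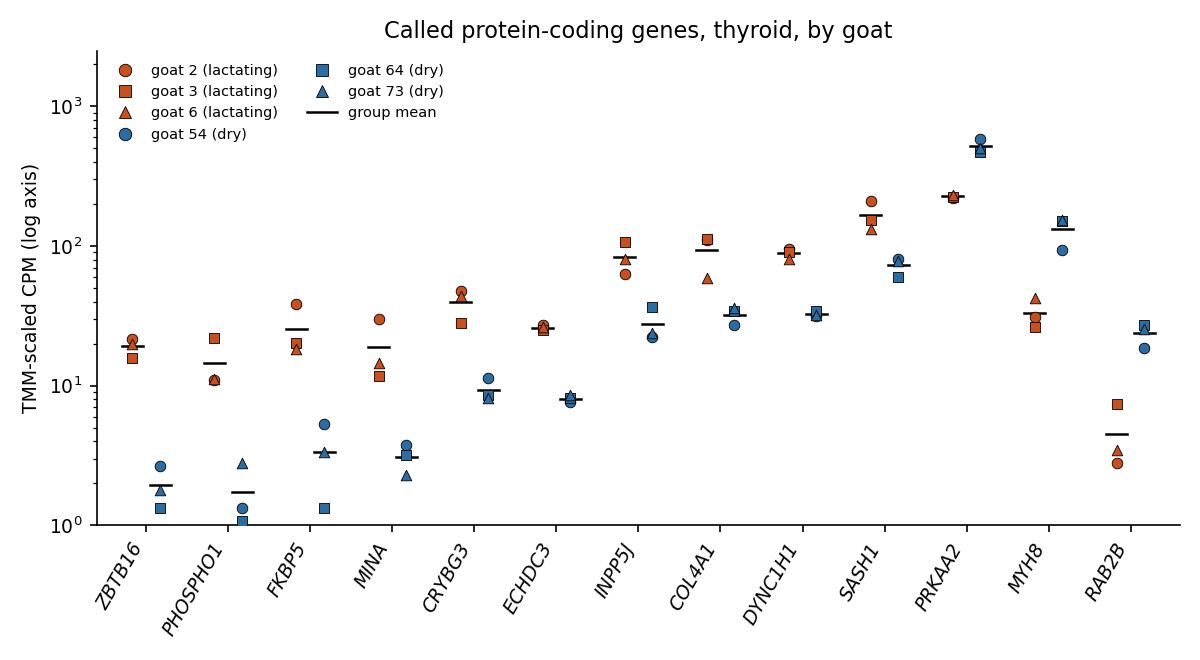
Levels of 13 called protein-coding genes in the 6 thyroid libraries, in TMM-scaled CPM on a log axis; each symbol is a goat and each bar a group mean. The 10 genes on the left are higher and the 3 on the right lower in lactation, with no overlap in any of them.

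Other called genes encode structural proteins and enzymes. PHOSPHO1, a phosphatase of phosphocholine and phosphoethanolamine, read 10.9 to 21.8 CPM in lactation and 1.07 to 2.81 CPM in the dry period (difference 3.05, SE 0.53). INPP5J, an inositol phosphatase, read 62.6, 107 and 80.5 CPM in goats 2, 3 and 6 and 22.4, 36.4 and 24 CPM in goats 54, 64 and 73 (difference 1.60, SE 0.27). All lactating values of both genes were above all dry ones.

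ECHDC3, a mitochondrial protein of the enoyl-CoA hydratase family, was nearly constant within each state, at 25 to 27 CPM in lactation and 7.58 to 8.51 CPM in the dry period (difference 1.70, SE 0.29). DYNC1H1, the heavy chain of cytoplasmic dynein, read 80.2 to 95.9 CPM and 31.4 to 34.2 CPM (difference 1.44, SE 0.20). The basement membrane collagen COL4A1 read 58.7 to 113 CPM and 27.2 to 35.8 CPM (difference 1.54, SE 0.26), with goat 6 the lowest of the lactating animals. The scaffold protein gene SASH1 read 133 to 209 CPM and 59.9 to 80.8 CPM (difference 1.18, SE 0.21). MINA, a ribosomal oxygenase gene, and CRYBG3, a crystallin-domain gene, overlap each other in the annotation, so their calls (2.59, SE 0.46, and 2.08, SE 0.30) may share reads. The edgeR adjusted p for the genes of these paragraphs lay between 0.0117 for DYNC1H1 and 0.048 for SASH1. PHOSPHO1, ECHDC3, MINA and SASH1 lost their call in all 6 fits that leave out a goat. COL4A1 lost its call in 5 of these fits, INPP5J in 4, CRYBG3 in 3 and DYNC1H1 in 2. PHOSPHO1 and ECHDC3 also lost their call with the deposited offsets for library size and gene length as scaling. In the fit over all 33 tissues the call was lost for INPP5J, DYNC1H1, COL4A1, SASH1 and MINA, with edgeR adjusted p up to 0.635 for INPP5J.

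PRKAA2, a catalytic subunit of the energy sensor AMP-activated protein kinase, was lower in lactation and had its highest mean of all 33 tissues in the thyroid. It read 221, 226 and 233 CPM in goats 2, 3 and 6 and 586, 471 and 501 CPM in goats 54, 64 and 73. The lactating values lay within a narrow range far under the dry ones, and the difference was -1.19 (SE 0.16, edgeR adjusted p = 0.0117). The call was lost without goat 2, 6 or 73, with edgeR adjusted p up to 0.0899, and in a fit over all 33 tissues (edgeR adjusted p = 0.368). PRKAA1, the other catalytic subunit, was singled out afterwards for comparison. It overlapped, at 47.5 to 58 CPM against 44.7 to 53 CPM (difference 0.12, SE 0.20). RAB2B, a small GTPase of vesicle traffic, read 2.79, 7.35 and 3.47 CPM in lactation and 18.6, 27.3 and 25.6 CPM in the dry period (difference -2.39, SE 0.40, edgeR adjusted p = 0.0387). It lost its call without goat 2, 6, 64 or 73, with edgeR adjusted p up to 0.206, and in the fit over all tissues (edgeR adjusted p = 0.181).

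MYH8, a skeletal myosin heavy chain of the perinatal period, read 31.1, 26.5 and 42.2 CPM in lactation and 94.1, 150 and 153 CPM in the dry period. The groups did not overlap, and the difference was -1.99 (SE 0.25, edgeR adjusted p = 0.0115). The call was lost without goat 73, with edgeR adjusted p = 0.0899 there, at the upper end of a range from 0.00213 over the fits that leave out a goat. It was also lost in the fit over all 33 tissues (edgeR adjusted p = 0.581). By its mean of MYH8 the thyroid ranked 2 of the 33 tissues, below the esophagus at 758 CPM. The thyroid lies on the neck muscles, so skeletal muscle markers were read beside MYH8. Of 10 such markers CKM, TNNC2 and MYLPF were at 0 in every library, and the summed level was 4.95 to 9.12 CPM in lactating goats and 5.37 to 8.56 CPM in dry goats. Skeletal myosin genes are close relatives, and whether the counting split reads between them and MYH8 was not tested.

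Called lncRNA features lay in both directions, 9 higher and 7 lower. LOC106503576-OT1, an overlapping lncRNA, read 11.2, 21.1 and 16.1 CPM in lactating goats and 0, 0 and 0.256 CPM in dry goats. Its call held under each of the 14 alternatives that gave a value, with edgeR adjusted p up to 0.038. Its lactating mean was also higher in 31 of the 32 other tissues. In the comparison with those tissues described below, the thyroid difference was not shown to differ from theirs (limma adjusted p = 0.608). LOC108633460-AS1 and NFIC-AS1 were higher by 2.73 (SE 0.47) and 1.83 (SE 0.28). Lower ones were ITGBL1-OT1 at -3.48 (SE 0.61), LINC64594 at -3.30 (SE 0.45) and LINC64450 at -3.12 (SE 0.42). These 5 lost their call in 1 (LINC64450) to 6 (LOC108633460-AS1) of the 6 fits that leave out a goat. Antisense features of 2 transcription factor genes that respond to glucocorticoids, named after the rule for lncRNAs was applied, were also called. CEBPD-AS1 read 316 to 384 CPM against 145 to 172 CPM, and CEBPB-AS1 183 to 283 CPM against 91 to 116 CPM. CEBPD-AS1 lost its call in 3 and CEBPB-AS1 in 5 of the 6 fits that leave out a goat, and both lost it in the fit over all tissues (edgeR adjusted p = 0.289 and 0.213), as did LINC64450 (edgeR adjusted p = 0.584) and LOC108633460-AS1. The host gene CEBPD read 10.5, 11.9 and 16.6 CPM in lactation and 3.99, 7.76 and 7.67 CPM in the dry period, without overlap (difference 1.01, SE 0.41, edgeR adjusted p = 0.43). CEBPB overlapped, at 4.42 to 12.9 CPM against 1.61 to 4.86 CPM (difference 1.61, SE 0.58, edgeR adjusted p = 0.365). Counts of a host and of its antisense feature cannot be told apart with certainty, for the reason given for TG and SLA.

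**Figure D3:**
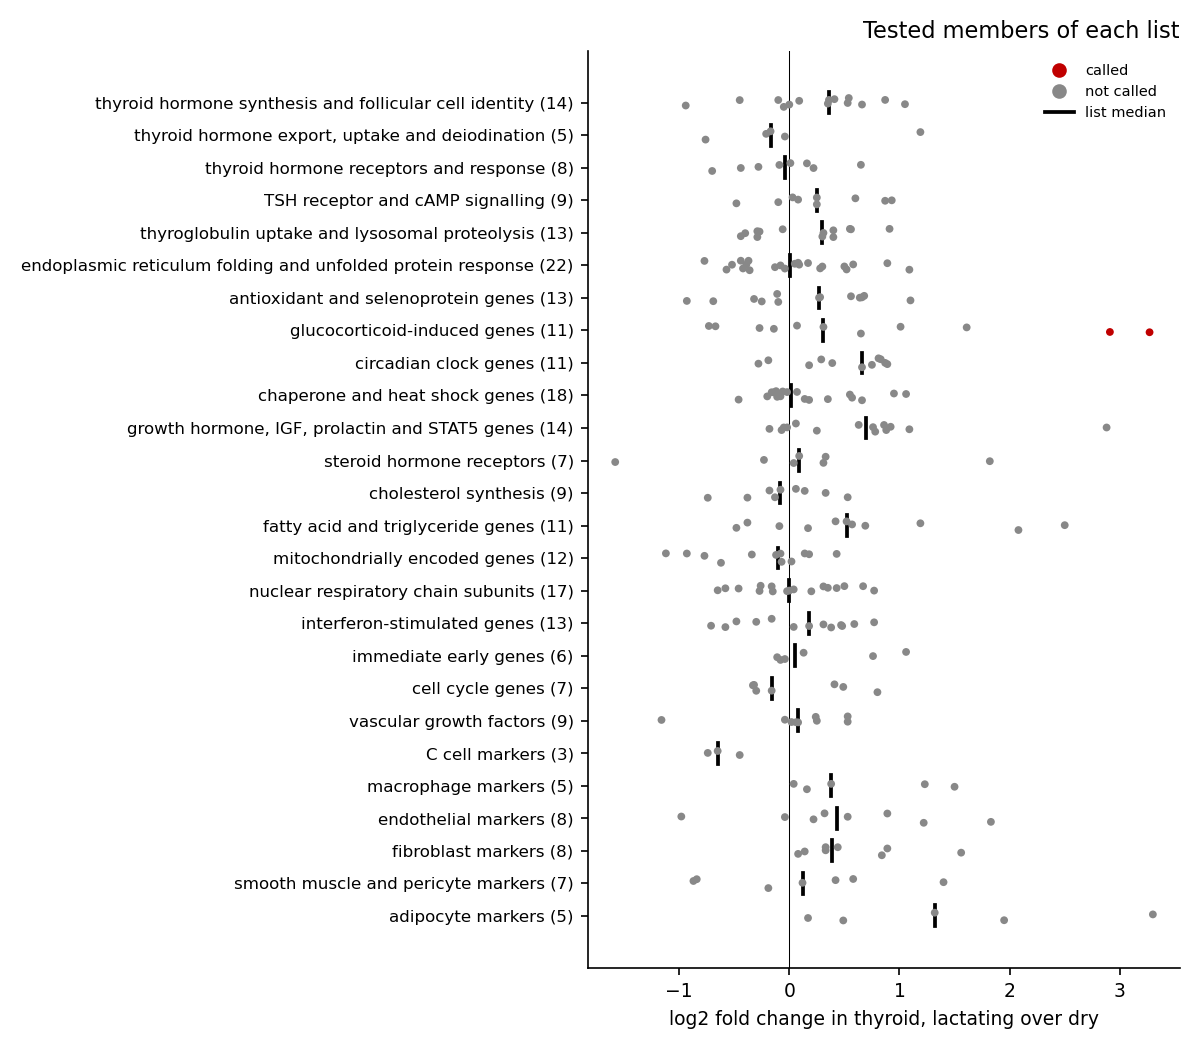
Log2 fold change of each tested member of the gene lists in the thyroid, lactating over dry, with the list median as a bar and the number tested in parentheses. Called genes are in red; those drawn are FKBP5 and ZBTB16. Of the cell type lists 6 are drawn, and the medians of all lists drawn lie between -0.65 for C cell markers and 1.32 for adipocyte markers.

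Lists of hormone signalling and metabolism held members that differed without overlap but none that was called. Of the growth hormone, IGF, prolactin and STAT5 genes 14 were tested and 0 were called, with a median of 0.70. In this list 7 were higher in each lactating goat, beside 8.23% of all features and 898 of 8528 protein-coding genes. The insulin receptor INSR read 29.3, 14.4 and 16.8 CPM in lactation and 11.7, 7.76 and 8.95 CPM in the dry period (difference 1.09, SE 0.36, edgeR adjusted p = 0.308). Its substrate IRS2 read 3.73, 5.83 and 3.71 CPM and then 0.664, 0.803 and 0.256 CPM (difference 2.88, SE 0.74, edgeR adjusted p = 0.168). IRS2 was at or below 3 counts in each dry library. The receptors IGF1R and IGF2R were higher by 0.86 (SE 0.41) and 0.88 (SE 0.28), and the prolactin receptor PRLR by 0.25 (SE 0.23), each without overlap and none past the test. The STAT5 target SOCS2 was below 4 CPM in every library and was not tested.

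In the fatty acid and triglyceride list, 0 of 11 tested genes were called, 8 were fitted higher and the median was 0.52. Of these genes 4 were higher without overlap, beside 8.23% of all features and 898 of 8528 protein-coding genes. The 3 genes of the list with the smallest p all serve fat oxidation. CPT1A, which admits long-chain fatty acids to mitochondria, read 14.7, 10.1 and 8.91 CPM in lactation and 2.44, 2.14 and 1.28 CPM in the dry period (difference 2.50, SE 0.49, edgeR adjusted p = 0.0736). PDK4, a kinase that restrains pyruvate oxidation, read 14.4, 11.8 and 14.1 CPM and then 4, 2.25 and 3.31 CPM (difference 2.08, SE 0.42, edgeR adjusted p = 0.083). The nuclear receptor PPARA, a regulator of both, read 78.7, 86 and 97.2 CPM and then 25.7, 46.1 and 42.9 CPM (difference 1.19, SE 0.24, edgeR adjusted p = 0.0828). They were above all dry values in every lactating goat and short of the threshold. The circadian clock list had 0 of 11 called, 9 fitted higher and a median of 0.66, and each of the 11 overlapped between states.

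No call was made in the remaining pathway lists. Of 7 steroid hormone receptors, the estrogen receptors lay in opposite directions. ESR2, highest in the thyroid of all tissues, read 13.3, 12.9 and 7.43 CPM in lactation and 4.65, 3.21 and 1.53 CPM in the dry period (difference 1.82, SE 0.51, edgeR adjusted p = 0.2). ESR1 read 2.34, 3.55 and 1.98 CPM and then 9.14, 10.4 and 4.09 CPM (difference -1.58, SE 0.55, edgeR adjusted p = 0.343). Neither overlapped between states. Antioxidant and selenoprotein genes (0 of 13, median 0.27), chaperone and heat shock genes (0 of 18, median 0.02) and cholesterol synthesis genes (0 of 9, median -0.08) held no call. The same was true of mitochondrially encoded genes (0 of 12, median -0.10), nuclear respiratory chain subunits (0 of 17, median -0.00) and interferon-stimulated genes (0 of 13, median 0.18). Immediate early genes (0 of 6, median 0.05), cell cycle genes (0 of 7, median -0.16) and vascular growth factors (0 of 9, median 0.08) held none either.

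Markers of the other cells of the gland were read beside these results, and their part in them was not tested. C cells, the calcitonin cells between the follicles, had 14 listed markers in the table, of which SST was at 0 throughout. Their summed level was 30.2 to 49.3 CPM in lactating goats and 51.8 to 77.5 CPM in dry goats, most of it from CPE. The summed level of 9 smooth muscle and pericyte markers was 353 to 453 CPM against 121 to 315 CPM. It came mainly from MYH11, at 322, 293 and 375 CPM in lactation and 63.8, 217 and 94.6 CPM in the dry period (difference 1.40, SE 0.34, edgeR adjusted p = 0.15). The other contractile markers did not follow, with ACTA2 at 4.7 to 7.69 CPM against 6.91 to 13.6 CPM.

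Summed levels of 10 endothelial markers were 71.1 to 88.7 CPM against 58.5 to 63.7 CPM, yet the members diverged. VWF was higher in each lactating goat (difference 1.83, SE 0.53, edgeR adjusted p = 0.22), and CDH5 was fitted lower and overlapped (difference -0.98, SE 0.41, edgeR adjusted p = 0.465). Macrophage markers summed to 51.9 to 57 CPM against 22.8 to 40.1 CPM (9 markers, none at 0 throughout), led by CSF1R (difference 1.23, SE 0.36, edgeR adjusted p = 0.233). Adipocyte markers summed to 20.5 to 42.7 CPM against 9.78 to 16.7 CPM (6 markers, none at 0 throughout), with ADIPOQ at 18.6 CPM in goat 6 and at most 4.31 CPM elsewhere. Fibroblast markers overlapped, at 88.4 to 140 CPM against 52.7 to 92.8 CPM, and 8 of 8 tested were fitted higher without a call. Of the parathyroid markers, GCM2 was at 0 in all libraries and PTH was above 0 in goat 2 alone, at 0.466 CPM, below the level of 3 counts. Summed markers of T cells, B and plasma cells, erythrocytes, thymus, airway and salivary epithelium, and nerve overlapped between states. Milk protein genes summed to 72.5 CPM in goat 6 and to at most 1.52 CPM in the other thyroid libraries.

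The next comparison asked whether the state difference in the thyroid differed from that of the other 32 tissues of the same goats. Each goat's thyroid log2 CPM, here on plain library totals without TMM, was set against its mean over the other tissues. These 6 values were compared between states with limma. The thyroid differences given here are therefore on another scale than the edgeR ones above. Of 21233 genes tested, 8 were called (0.0377%), with 4 more positive in the thyroid and 4 more negative. INPP5J was among them, at 1.72 in the thyroid and -0.23 in the other tissues, a difference of 1.95 (SE 0.29, limma adjusted p = 0.0209). SUCO, a membrane protein of the endoplasmic reticulum, stood at 2.16 against -0.35 (difference 2.51, limma adjusted p = 0.0376). MYH8 stood at -1.84 against 0.06 (difference -1.90, limma adjusted p = 0.00819). LOC102190915-AS1, ITGBL1-OT1 and LOC108637882 were also called. Without goat 73 none of the 8 was called, and 1025 genes had an unadjusted p under 0.05.

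TG missed the threshold in this comparison, at a difference of 1.05 (SE 0.19, limma adjusted p = 0.0659). ZBTB16 and FKBP5 stood at 1.55 and 1.61 in the other tissues, and their differences of 1.65 and 1.39 did not pass the test (limma adjusted p = 0.377 and 0.572). PRKAA2 was at -0.16 in the other tissues, with a difference of -0.89 (limma adjusted p = 0.0707), which was 0.71 when only the adenohypophysis, adrenal cortex and ovary were used. Of the 22 called genes higher in the thyroid, 20 (90.9%) had a higher lactating mean in at least 17 of the 32 other tissues, beside 74.6% of all tested genes fitted higher. Of the 13 lower ones, 8 (61.5%) had a lower mean in as many tissues, beside 35.2% of all tested genes fitted lower. The tissues come from the same 6 goats, so these counts are a description and carry no test.

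**Figure D4:**
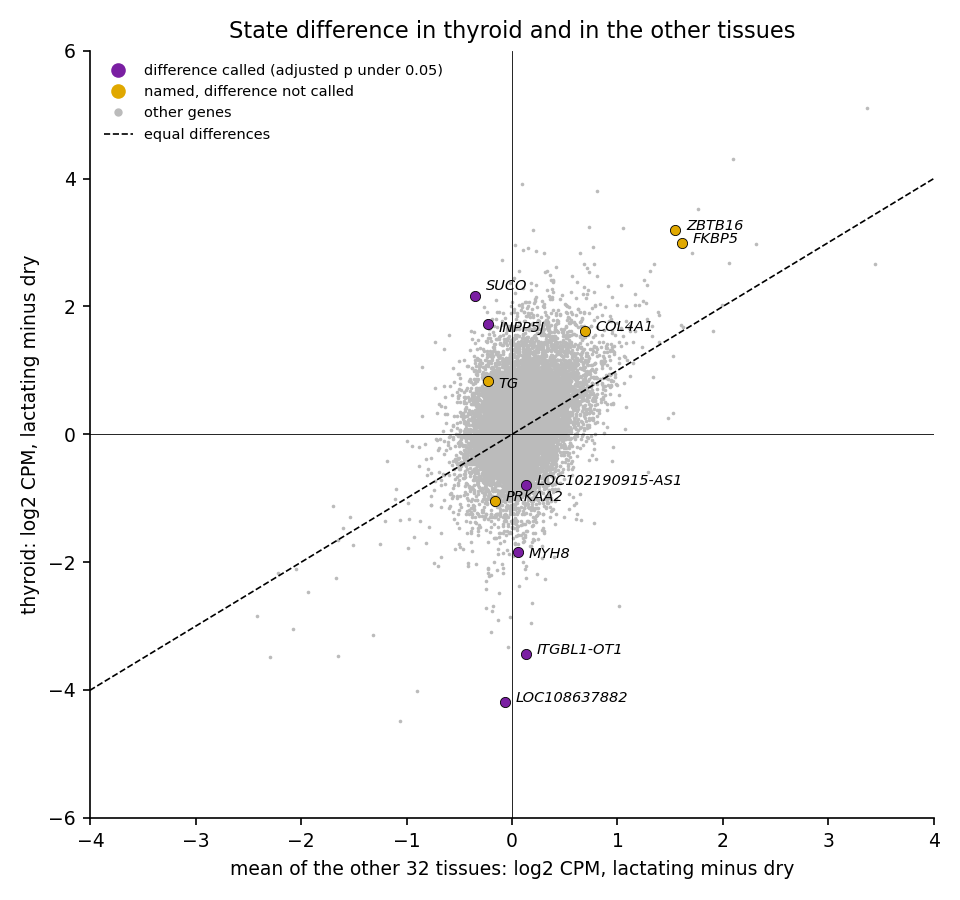
State difference in log2 CPM on plain library totals, lactating minus dry, for genes tested in the thyroid. The thyroid is on the vertical axis and the mean of the other 32 tissues on the horizontal axis. INPP5J, SUCO and MYH8 lie near 0 on the horizontal axis and away from 0 on the vertical one, whereas ZBTB16 and FKBP5 are positive on both.

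Genes of the pituitary and liver side of the thyroid axis were read in the same goats. In the adenohypophysis 516 of 18239 features were called (2.83%), a count that fell to 112 without goat 2, 200 without goat 6 and 246 without goat 54. It lay between 301 and 322 without goat 3, 64 or 73, and was 1176 with no filter on low counts. CGA, the alpha subunit shared by thyrotropin and the gonadotropins, read 104, 70.3 and 48.4 CPM in lactating goats 2, 3 and 6 and 19.6, 13.6 and 32.9 CPM in dry goats 54, 64 and 73. It was higher in lactation (difference 1.75, SE 0.32, edgeR adjusted p = 0.0113), a call lost without goat 2, where the adjusted p was 0.0702, in a range from 0.00662. TSHB, the subunit particular to thyrotropin, read 2.96, 3.17 and 4.94 CPM and then 1.2, 2.72 and 0 CPM. It did not overlap but was too low for a firm statement (difference 1.48, SE 0.85, edgeR adjusted p = 0.387). Growth hormone, GH1, was higher as well (difference 2.33, SE 0.40, edgeR adjusted p = 0.00891), a call also lost without goat 2 (edgeR adjusted p = 0.0505), and the thyrotropin-releasing hormone receptor TRHR overlapped (difference -0.26, SE 0.46). The deiodinase DIO1 read 5.92 to 6.83 CPM in lactation and 11.3 to 15.7 CPM in the dry period there (difference -1.02, SE 0.34, edgeR adjusted p = 0.128).

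In the hypothalamus 0 of 18381 features were called by edgeR, 956 had an unadjusted p under 0.05, and 0 were called with DESeq2's size factors. With no filter on low counts 45 were called, and the fits without a goat gave 0 to 4 calls, with 4 each without goat 2 or goat 3 and 1 without goat 64. The thyrotropin-releasing hormone gene TRH reached at most 2.05 CPM there and was not tested. DIO2 was higher in each lactating goat, at 23.7 to 29.3 CPM against 16.8 to 19.2 CPM (difference 0.55, SE 0.21, edgeR adjusted p = 0.915). In the liver 243 of 17027 features were called (1.43%), none of them on the axis list. The fits that leave out a goat gave 45 calls (goat 54 left out) to 254, with 67 for goat 64, 109 for goat 73 and 132 for goat 6, and 980 were called with no filter on low counts. DIO1 read 21, 15.1 and 36.3 CPM in lactation and 4.88, 3.08 and 16.1 CPM in the dry period (difference 1.59, SE 0.56, edgeR adjusted p = 0.216). Its groups overlapped, as lactating goat 3 lay below dry goat 73. Liver DIO2 did not overlap, at 17.4 to 27.1 CPM against 8.16 to 13.5 CPM (difference 0.87, SE 0.34, edgeR adjusted p = 0.273). The plasma carriers of thyroid hormone lay lower in each lactating goat, with transthyretin, TTR, at 140, 47.8 and 149 CPM against 226, 258 and 220 CPM (difference -1.07, SE 0.34, edgeR adjusted p = 0.174). Albumin, ALB, also a carrier and the main secreted protein of hepatocytes, read 17517, 3711 and 19501 CPM and then 22340, 26204 and 20571 CPM (difference -0.76, SE 0.44, edgeR adjusted p = 0.496). The liver of goat 3 stood far below the rest in both genes, and without it the differences were -0.70 for TTR and -0.32 for ALB. Thyroxine-binding globulin, SERPINA7, lay at 4.71 to 9.08 CPM against 9.65 to 11.4 CPM (difference -0.70, SE 0.41, edgeR adjusted p = 0.511).

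**Figure D5:**
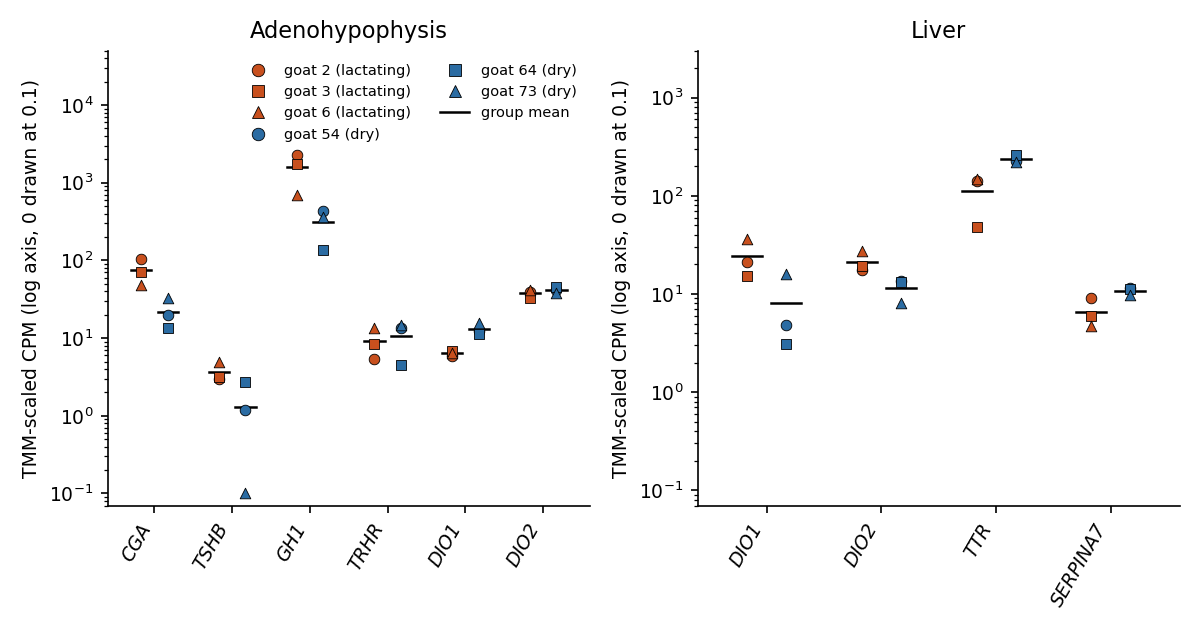
Levels of thyroid axis genes in the adenohypophysis (left) and liver (right) of the same 6 goats, in TMM-scaled CPM on a log axis, with 0 drawn at 0.1; each symbol is a goat and each bar a group mean. CGA and GH1 are higher in all lactating goats, and liver TTR and SERPINA7 are lower in all of them.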

How the data were processed

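Total RNA libraries were strand-specific, per the labels' protocols. STAR, StringTie and edgeR appear in the submitters' processing notes, without versions and without a genome build. The deposited gene table holds expected counts from the authors' own quantification. Of its values above 0, 37.0% were fractional, and they were rounded for edgeR. A second deposited table holds natural log offsets for library size and gene length and served as an alternative scaling. Names and overlaps come from RefSeq, assembly ARS1.2, which 23502 of 39734 features matched.

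Features were filtered with filterByExpr (minimum count 10), scaled by TMM and tested with edgeR 4.0.16 (quasi-likelihood F-test, two-sided, Benjamini-Hochberg over all features). The comparison with other tissues used limma 3.58.1 on log2 CPM of plain library totals (prior count 2, thyroid mean of at least 1 CPM). The pairing there comes from the goat, the same animal in each tissue; between thyroid groups no goat is shared. DESeq2 1.42.0 was an alternative. Both fits were run on simulated data drawn independently for each gene and library. Such data hold no shift shared by the genes of a goat, so these runs give no support to the calls above. No 2 thyroid libraries were identical (Pearson r 0.921 to 0.946), and p-values measure the spread between single goats.

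Members and lists were chosen with earlier results of these data known. Named genes were every thyroid list member, up to 10 higher and 10 lower called genes with a symbol, 3 called lncRNAs in each direction, called list members, and up to 5 genes in each direction for the comparison with other tissues. Some genes, called ones among them, are not reported here and were left out of the lists, their medians and the figures. The 3-count floors cover counting error only.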

Additional observations from a re-analysis of the deposited data

Results flagged for a closer look

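The 6 genes below differed between the thyroid and the mean of the other 32 tissues in their response to state, by limma on each goat's own difference. Values are the thyroid log2 difference, lactating minus dry, less that of the other tissues. More positive in the thyroid were SUCO at 2.51 and INPP5J at 1.95. More negative were MYH8 at -1.90, the antisense lncRNA LOC102190915-AS1 at -0.94, the overlapping lncRNA ITGBL1-OT1 at -3.56 and the uncharacterised coding gene LOC108637882 at -4.12. In the thyroid itself, LOC102190915-AS1 read 964 to 1186 CPM in lactating goats and 2008 to 2094 CPM in dry goats. LOC108637882 read 0, 0 and 0.743 CPM in lactating goats and 6.2, 14.2 and 15.1 CPM in dry goats. SUCO read 48.4, 117 and 41.3 CPM against 24.6, 6.15 and 21.2 CPM and was not called in the thyroid fit alone (edgeR adjusted p = 0.14). The difference of MYH8 was negative in all 13 alternatives run, and its call was lost in 4 of them, with limma adjusted p up to 0.216. They were the fit without goat 73, the fit without the replicate block, the prior count of 0.5 and the median over tissues. The other 5 genes were less stable. Of the same 13 alternatives, INPP5J was called in 6, and SUCO and LOC102190915-AS1 in 5 each. ITGBL1-OT1 and LOC108637882 were called in 4 each, with limma adjusted p up to 0.448 and 0.431.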

How the results depend on the processing

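In the thyroid comparison the 35 calls became 36 with DESeq2's size factors, 211 with the DESeq2 Wald test (34 of the 35 among them) and 475 with no filter on low counts (all 35 among them). A fit over all 33 tissues gave 49 calls (22 higher, 27 lower), of which 12 were among the 35. Leaving out single goats gave 3 to 62 calls, and 2 of the 35 genes, LOC106503576-OT1 and LOC108635662, were called in all 6 such fits. Against the other tissues, the 8 calls became 4 with the median over tissues, 51 with endocrine tissues only and 1 at a thyroid mean of at least 5 CPM. With TMM factors in the log2 CPM, an alternative that was not planned, they became 11, of which 4 were higher and 7 lower. They became 0 with a prior count of 0.5 (1314 at an unadjusted p under 0.05) and ran from 0 to 52 with single goats left out. Without the replicate block, which drops the pairing within goats, 0 genes were called by limma and 1589 had an unadjusted p under 0.05. The 2 calls among axis genes became 6 with no filter on low counts, and 0 (without goat 2) to 2 without single goats. No paired analysis of the 2 thyroid groups was possible because they share no goat. Signs turned in genes near 0: DUOXA2 was 0.06 and TSHR 0.05 with plain library totals, chosen as an alternative after seeing the data. IYD was -0.02 and NKX2-1 was -0.12 without lncRNA features. NKX2-1 was -0.01 with DESeq2's size factors, with the DESeq2 Wald test and without antisense lncRNAs, and -0.03 in the fit over all tissues. Without single goats the values ran from -0.05 to 1.59 for DUOXA1, -0.38 to 0.32 for DUOXA2, -0.07 to 0.34 for IYD, -0.27 to 0.09 for TSHR and -0.12 to 0.11 for NKX2-1. The thyroid difference of PRKAA2 from other tissues turned to 0.71 with endocrine tissues only. The causes were not tested. Of 1131 gene values under alternatives, 19 turned sign, 156 lost a call, 26 gained one and 930 did none of these. Depth limits genes under about 1 CPM.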

Other observations

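Milk protein transcripts, which the mammary gland makes, were present in the thyroid library of 1 lactating goat. On plain library totals, the 8 milk protein genes in the table summed to 73.4 CPM in the thyroid of goat 6, to 0 and 1.52 CPM in those of goats 2 and 3, and to at most 0.533 CPM in those of the dry goats. In TMM-scaled CPM the thyroid of goat 6 held CSN2 and PAEP, the genes of beta-casein and beta-lactoglobulin, at 19.6 CPM each. It held the casein genes CSN3 at 13.1 CPM, CSN1S2 at 10.4 CPM and CSN1S1 at 7.92 CPM. The summed level in the mammary gland was 69160, 24238 and 34943 CPM in goats 2, 3 and 6. In the other 31 tissues of goat 6 the highest sum was 5.28 CPM, in the diaphragm, and 0 of 31 reached 10 CPM. The same 31 tissues held 1 at or above 10 CPM in each of 2 dry goats. These were the adenohypophysis of goat 64 at 10.56 CPM and the neurohypophysis of goat 73 at 27.01 CPM. In goats 2, 3 and 54 there were 0 such tissues. Goat 6 also had the highest thyroid ADIPOQ of all goats. The source of these reads was not tested.

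Some called features are of unknown function. LINC63768, an intergenic lncRNA on an unplaced scaffold, read 3991, 9193 and 5879 CPM in lactation and 1832, 2477 and 1929 CPM in the dry period (difference 1.61, SE 0.26, edgeR adjusted p = 0.0306). LINC26213 read 29.5 to 45.6 CPM against 116 to 233 CPM, and its lactating mean was lower in all 32 other tissues as well. KEF96_r01-AS1, antisense to a mitochondrial ribosomal RNA gene, read 131 to 269 CPM against 491 to 1017 CPM. The coding gene LOC108635662 was at or below 0.248 CPM in lactating goats and at 10.7 to 15.3 CPM in dry goats. The calls of LINC63768, KEF96_r01-AS1 and LOC108635662 were lost in the fit over all 33 tissues (edgeR adjusted p = 0.187, 0.247 and 0.0912). LINC63768 also lost its call without goat 3, 6, 54 or 73, and KEF96_r01-AS1 without goat 2, 6 or 73. LINC26213 lost its call without goat 6 or 73. These features were chosen after their values were seen.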
